A study of Mus musculus with 8 samples.

Results

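Nephronectin, its receptor subunit integrin alpha 8 and 5 further genes used as markers of lung alveolar fibroblasts were followed across sorted mouse lung fibroblasts and whole lung cells. The genes are Npnt, Itga8, Limch1, Ces1d (named Ces3 on older arrays), Inmt, Mfap4 and Gpc3. They were taken by name from the array annotation, with all 10 of their probes, and make up 7 of 24458 named genes on the array and 7 of the 17744 genes that were tested. Each sample was hybridised alone to a one-colour Agilent mouse array, giving 8 arrays in 4 groups of 2.

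C-type, A-type and B-type fibroblasts are 3 populations sorted from lung suspensions, and pulmonary single cells are the suspension from which they came. Every sample was 50000 freshly isolated cells from lungs of adult female C57BL/6 mice aged 12 to 16 weeks, and no group carried a transgene, a deletion or a treatment according to the labels. The labels describe the 2 samples of each group as separate preparations. Neither the number of mice behind a sample nor the surface phenotype that defines each type is given in the sources used here. The sort used antibodies to the lineage markers E-cadherin, CD31, CD45, CD146, LYVE-1 and TER119 and to PDGFRA, SCA-1 and THY-1. Arrays are called C1, C2, A1, A2, B1, B2, Pu1 and Pu2 after group and replicate. Both pulmonary arrays lay on 1 slide and all 6 fibroblast arrays on the other, so slide and cell population cannot be told apart in any comparison with pulmonary single cells, while the 3 comparisons between fibroblast types lie within 1 slide.

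Integrin alpha 8 pairs with the beta 1 subunit to form a receptor that recognises the RGD tripeptide, and nephronectin, a secreted protein of basement membranes, is among its strongest ligands. In mice the pair is known from kidney development, where loss of either gene disturbs outgrowth of the ureteric bud. In the lung, alveolar fibroblasts lie in the walls between air spaces and adventitial fibroblasts lie around vessels and airways, and nephronectin transcript is also known from alveolar type 1 epithelium. Of the other genes, Limch1 encodes an actin-associated protein that acts on non-muscle myosin, Ces1d a carboxylesterase that hydrolyses lipids, Inmt an enzyme that methylates indole amines, Mfap4 a glycoprotein of elastic microfibrils, and Gpc3 a membrane-anchored heparan sulfate proteoglycan.

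The sequences below are those of the second of 2 Npnt probes, which repeats the order of the groups, of the Ces1d probe, whose target has close relatives, and of the 250 bases before a transcript start of Npnt and Itga8, which had the same order over the fibroblast types, and of Inmt, which was high in all 3. The Npnt probe A_51_P289889 maps to the minus strand at chr3:132547399-132547458 of mm9. The Ces1d probe A_51_P375969 is 60 bases long and its interval, chr8:95693648-95694933 of mm9 on the minus strand, spans 1286 bases. The upstream stretches come from RefSeq on GRCm38.p6, on the minus strand, at chr3:132950292-132950541 for Npnt, chr2:12301945-12302194 for Itga8 and chr6:55174991-55175240 for Inmt.
Npnt probe: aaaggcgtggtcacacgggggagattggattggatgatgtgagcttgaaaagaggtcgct
Ces1d probe: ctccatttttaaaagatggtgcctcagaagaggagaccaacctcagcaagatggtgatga
Npnt upstream: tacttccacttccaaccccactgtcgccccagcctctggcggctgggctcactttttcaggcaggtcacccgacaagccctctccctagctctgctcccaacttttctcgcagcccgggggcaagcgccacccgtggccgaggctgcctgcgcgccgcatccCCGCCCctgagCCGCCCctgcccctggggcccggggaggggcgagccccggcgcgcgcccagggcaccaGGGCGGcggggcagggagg
Itga8 upstream: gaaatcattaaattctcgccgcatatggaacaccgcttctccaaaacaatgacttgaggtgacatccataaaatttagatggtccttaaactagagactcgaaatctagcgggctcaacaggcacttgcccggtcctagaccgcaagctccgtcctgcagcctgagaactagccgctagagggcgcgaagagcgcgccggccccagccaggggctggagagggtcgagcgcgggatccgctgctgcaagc
Inmt upstream: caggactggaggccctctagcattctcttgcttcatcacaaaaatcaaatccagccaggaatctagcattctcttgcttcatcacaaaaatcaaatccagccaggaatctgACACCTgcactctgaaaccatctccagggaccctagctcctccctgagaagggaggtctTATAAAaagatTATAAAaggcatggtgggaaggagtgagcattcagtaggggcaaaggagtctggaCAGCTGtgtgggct

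Capitals mark matches, on either strand, to 5 motifs that were searched: the TATA box TATAAA, the GC box GGGCGG, the E-box CAGCTG, the T-box half-site AGGTGT and the forkhead core TGTTTA. The Npnt stretch held 3 GC boxes, the Inmt stretch 2 TATA boxes, 1 E-box and 1 T-box half-site, and the Itga8 stretch none of the 5. A second Npnt start held none of them either. Of 32851 mouse promoter windows of 250 bases, 32.7% held a GC box, 12.4% a TATA box, 13.0% the E-box, 11.8% the T-box half-site and 12.0% the forkhead core. The Npnt and Itga8 stretches had no match in common, and their GC content was 74.0% and 56.4%, against a median of 52.4% over all windows. Promoter entries were matched for 5 of the 7 genes, all but Ces1d and Mfap4. The Gpc3 start held 3 GC boxes, and of the 3 Limch1 starts 1 held 3 GC boxes, 1 a TATA box and 1 a forkhead core. A match is only a run of letters in this window.

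Levels are given as scaled log2 signal, the log2 of the background-subtracted spot signal minus the array's 75th percentile, so that 0 is the 75th percentile of the array and 1 unit is a doubling. Levels of different genes are not compared, since each probe has its own brightness. Of the 10 probes, 9 were well above background on all 8 arrays. The exception was the second Gpc3 probe, A_55_P2165344, which was well above background on 0 of 8 arrays and is not used. A difference was called when its Benjamini-Hochberg adjusted p from limma, fitted over all 17744 genes, was under 0.05, and it is given with the standard error (SE) of that fit.

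Replicates of A-type and of B-type cells lay closest together, with a correlation across genes of 0.985 in both and 5.24% and 5.53% of genes at least 2-fold apart. The C-type pair had a correlation of 0.947 with 20.9% of genes that far apart, and the pulmonary pair 0.916 with 31.3%. The fibroblast markers Pdgfra, Col1a1, Col1a2, Dcn and Lum were well above background on all 8 arrays. Their summed signal, in multiples of the array's 75th percentile, was 372 and 349 on the C-type arrays, 682 and 754 on the A-type arrays, 796 and 708 on the B-type arrays, and 36.8 and 48.4 on the pulmonary arrays. Of these 5 markers only Pdgfra, itself a target of the sort, was highest on the C-type arrays. It read 4.17 and 4.44 on C-type, 3.69 and 3.80 on A-type, and 3.48 and 3.55 on B-type arrays. Summed markers of the depleted lineages were lower on the fibroblast arrays than on the pulmonary arrays. The sum of 6 leukocyte markers was 0.894 to 1.596 on the 6 fibroblast arrays and 125 to 203 on the pulmonary arrays, and the sum of 6 blood endothelial markers was 4.23 to 7.38 on the fibroblast arrays and 64.4 to 68.1 on the pulmonary arrays. In bulk samples such as these, fewer cells of a type and less RNA per cell cannot be told apart.

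The 7 genes did not share 1 pattern across the groups. Npnt, Itga8 and Limch1 were graded, highest in C-type, intermediate in A-type and lowest in B-type fibroblasts. Ces1d was high in C-type fibroblasts and in pulmonary single cells and low in both other types. Inmt and Mfap4 were high in all 3 fibroblast types, and Inmt also fell in the order C-type, A-type, B-type by smaller steps. Gpc3 was high in all 3 but lower on the C-type arrays than on the A-type and B-type arrays. The differences of Inmt, Mfap4 and Gpc3 between types were not called. As a name for all 7, alveolar fibroblast markers thus covers at least 3 different distributions over these populations. The first 4 genes are the ones with a called difference between C-type and B-type cells.

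**Figure D1:**
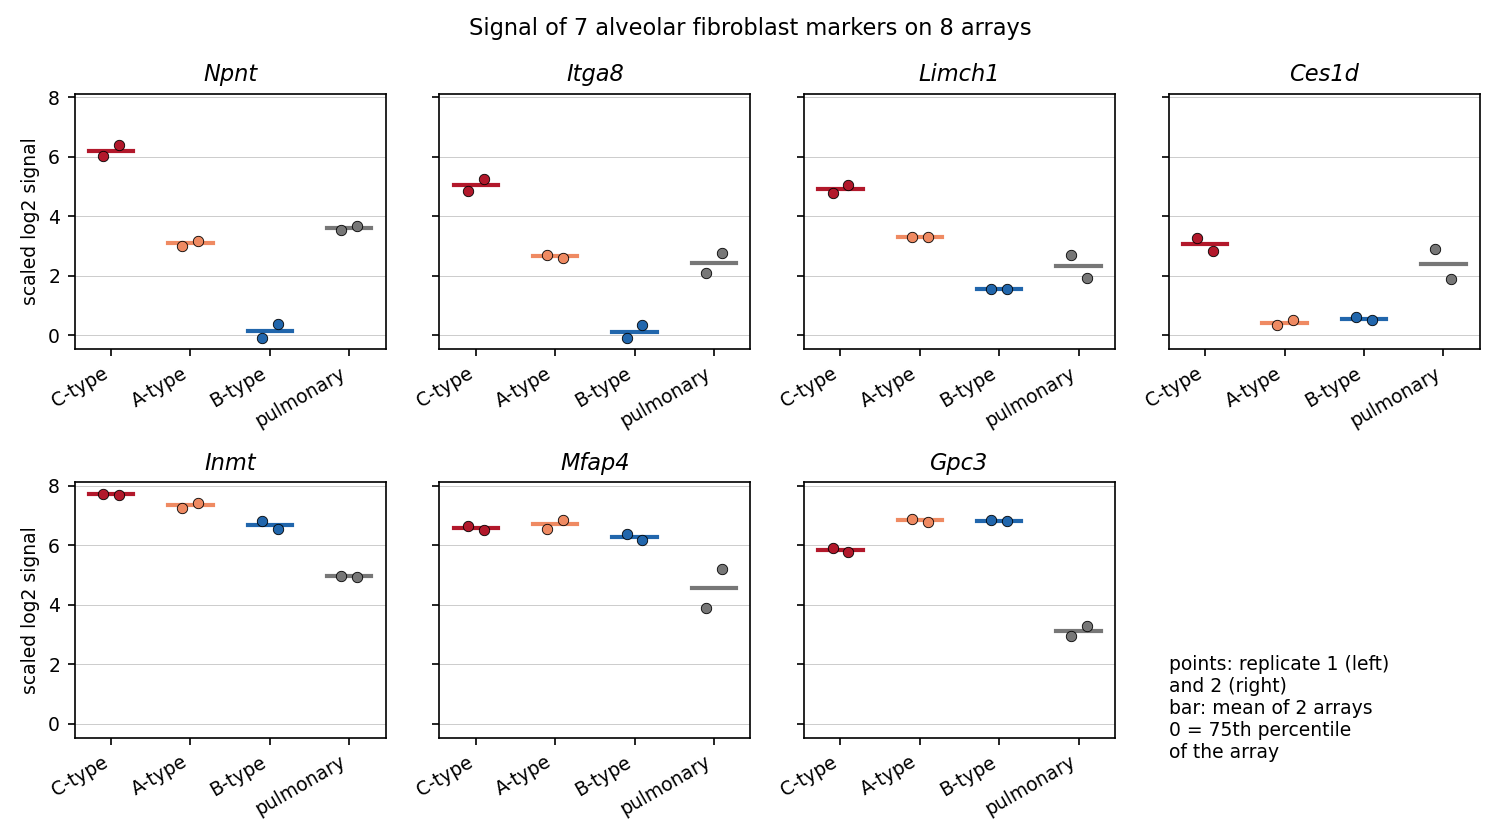
Scaled log2 signal (vertical axis, 0 is the array's 75th percentile) of the 7 genes on each of the 8 arrays, 1 panel per gene, with points for replicates 1 and 2 and a bar for the mean of 2 arrays. Npnt, Itga8 and Limch1 step down over C-type, A-type and B-type fibroblasts, while Inmt, Mfap4 and Gpc3 lie above the pulmonary arrays in all 3 types.

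Nephronectin gave the widest spread of the 7. The Npnt probe that stands for the gene, A_55_P1993549 at chr3:132545801-132545860 of mm9, read 6.01 and 6.39 in C-type fibroblasts, 3.01 and 3.16 in A-type fibroblasts, -0.09 and 0.37 in B-type fibroblasts, and 3.54 and 3.66 in pulmonary single cells. No group overlapped another, and the order was C-type, pulmonary, A-type, B-type, with the step from C-type to pulmonary cells called and the steps from pulmonary to A-type and from A-type to B-type cells not called. C-type fibroblasts averaged 6.20 ± 0.26 and B-type fibroblasts 0.14 ± 0.33 (SD, n = 2 each), a 66.7-fold higher level in C-type cells (log2 difference 6.06 ± 0.30, limma adjusted p = 0.00178). Against A-type fibroblasts the C-type level was 8.65-fold higher (3.11 ± 0.30, limma adjusted p = 0.0282). Between A-type and B-type fibroblasts the difference was 2.95 ± 0.30, or 7.71-fold, and was not called (limma adjusted p = 0.146, unadjusted p = 2.41e-05).

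A second Npnt probe, whose sequence is printed above, lies 1598 bases from the first and gave the same order. It read 3.65 and 3.94 on the C-type arrays, 0.96 and 0.64 on the A-type arrays, -2.23 and -2.14 on the B-type arrays, and 1.21 and 1.54 on the pulmonary arrays. C-type cells were 63.1-fold above B-type cells and 7.98-fold above A-type cells with this probe, and A-type cells 7.91-fold above B-type cells. Across the 8 arrays the 2 probes had a Pearson correlation of 0.997. That value describes arrays in 4 groups and carries no test.

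Integrin alpha 8, the receptor subunit for nephronectin, followed the same order within the fibroblasts. Its single probe, A_51_P309920 at chr2:12028462-12028521 of mm9, read 4.86 and 5.24 on the C-type arrays, 2.70 and 2.58 on the A-type arrays, -0.09 and 0.33 on the B-type arrays, and 2.10 and 2.75 on the pulmonary arrays. C-type arrays were above all others and B-type arrays below all others, while A-type and pulmonary arrays overlapped. C-type fibroblasts averaged 5.05 ± 0.27 and B-type fibroblasts 0.12 ± 0.30 (SD, n = 2 each), a 30.5-fold higher level in C-type cells (4.93 ± 0.34, limma adjusted p = 0.0031). The call was lost without B replicate 1, where the difference was 4.72 with a limma adjusted p of 0.058. C-type minus A-type was 2.40 ± 0.34 and missed the threshold (limma adjusted p = 0.0508), and A-type minus B-type was 2.53 ± 0.34 (limma adjusted p = 0.216).

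Across the 6 fibroblast arrays alone, Npnt had a Pearson correlation of 0.999 with Itga8 and 0.998 with Limch1. With the other members it was 0.949 for Inmt, 0.840 for Ces1d, 0.566 for Mfap4 and -0.871 for Gpc3. These are descriptions over 6 arrays of 3 types on 1 slide.

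Limch1 was graded in the same way with smaller steps. The probe standing for the gene, A_55_P2023732 at chr5:67447159-67447218 of mm9, read 4.76 and 5.06 on the C-type arrays, 3.28 and 3.29 on the A-type arrays, 1.55 and 1.54 on the B-type arrays, and 2.69 and 1.92 on the pulmonary arrays. No group overlapped another, and both pulmonary arrays lay between A-type and B-type arrays. The C-type level was 10.3-fold that of B-type cells (3.37 ± 0.33, limma adjusted p = 0.00588). Leaving out B replicate 1 or B replicate 2 ended this call, with limma adjusted p of 0.0772 and 0.0711 and differences of 3.37 and 3.36. C-type minus A-type was 1.62 ± 0.33 (limma adjusted p = 0.104) and A-type minus B-type 1.74 ± 0.33 (limma adjusted p = 0.266).

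The second Limch1 probe, A_55_P2023727 at 1070 bases from the first, read 3.09 and 3.22 on the C-type arrays, 1.80 and 1.93 on the A-type arrays, -0.12 and -0.20 on the B-type arrays, and 1.00 and 1.45 on the pulmonary arrays. The order of the 4 groups was the same, and the correlation of the 2 probes over 8 arrays was 0.947. They differed on the pulmonary arrays: the first probe was higher on Pu1 and the second on Pu2. The difference B-type minus pulmonary was called with the second probe (-1.38 ± 0.30, limma adjusted p = 0.0195 over all probes) and not with the first (-0.76 ± 0.33, limma adjusted p = 0.132 over all genes).

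**Figure D2:**
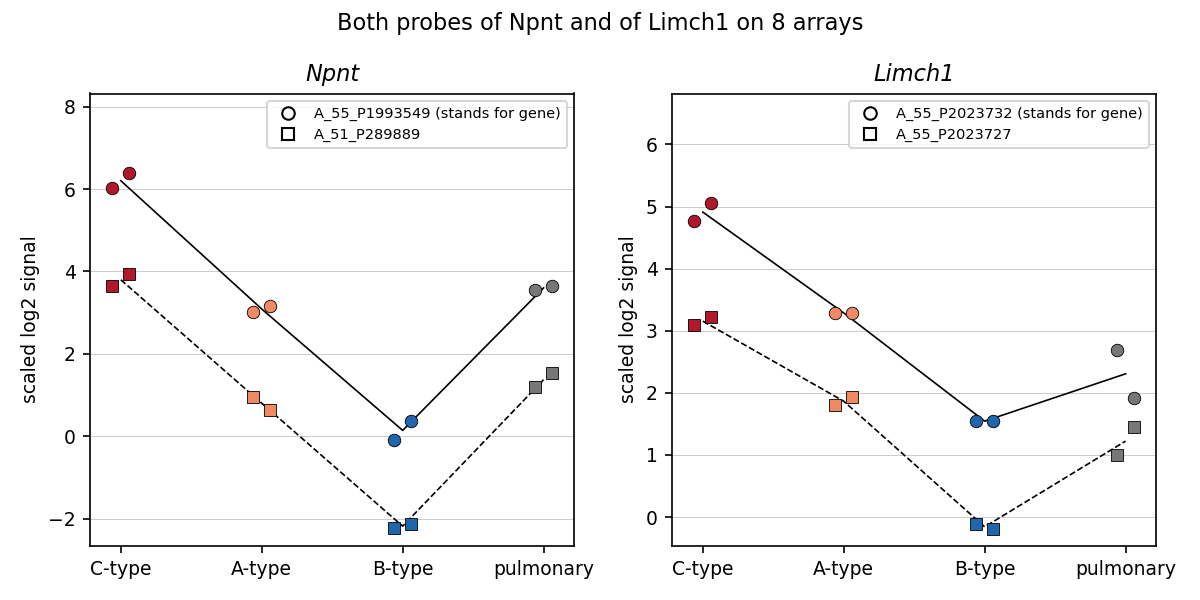
Scaled log2 signal of both probes of Npnt (left) and of Limch1 (right) on the 8 arrays, with circles for the probe that stands for the gene, squares for the other probe and lines through the means of 2 arrays. Both probes of each gene give the order C-type, A-type, B-type within the fibroblasts, and the Limch1 probes differ in which pulmonary array is higher.

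Ces1d, a carboxylesterase of the endoplasmic reticulum that hydrolyses triacylglycerol, split the fibroblasts differently. Its probe read 3.27 and 2.82 on the C-type arrays, 0.34 and 0.50 on the A-type arrays, 0.59 and 0.49 on the B-type arrays, and 2.90 and 1.89 on the pulmonary arrays. C-type and pulmonary arrays overlapped, A-type and B-type arrays overlapped, and the pairs were apart from each other. The C-type level was 5.67-fold that of B-type fibroblasts (2.50 ± 0.39, limma adjusted p = 0.0249). The difference from A-type fibroblasts was as large, 2.62 ± 0.39, but missed the threshold (limma adjusted p = 0.0528), and A-type minus B-type was -0.12 ± 0.39 (limma adjusted p = 1.00). The call against B-type cells was lost with no filter on dim probes (limma adjusted p = 0.0511), with only the groups compared in the fit (limma adjusted p = 0.0552), and when A1, A2, B1, B2, C1 or C2 was left out, with differences of 2.28 to 2.73 and limma adjusted p of 0.055 to 0.2 in those cases.

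Ces1d belongs to a cluster of closely similar carboxylesterase genes, and the array signal may include their transcripts. Of 7 other class 1 carboxylesterases on the array, 2 were tested, Ces1e and Ces1g. Ces1g read -3.30 and -3.21 on the C-type arrays, -5.05 and -6.25 on the A-type arrays, -6.21 and -6.07 on the B-type arrays, and -5.17 and -6.78 on the pulmonary arrays, and was well above background only on the 2 C-type arrays. It was called higher in C-type fibroblasts than in pulmonary single cells, by at least 5.45-fold, and the call was lost without C replicate 2 (limma adjusted p = 0.0592). Ces1e passed no test in any comparison.

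Inmt, which transfers methyl groups to tryptamine-like amines, was high in every fibroblast type. Its probe at chr6:55120770-55120829 of mm9 read 7.73 and 7.69 on the C-type arrays, 7.24 and 7.44 on the A-type arrays, 6.83 and 6.55 on the B-type arrays, and 4.97 and 4.93 on the pulmonary arrays. The groups did not overlap and fell in the order C-type, A-type, B-type, pulmonary. Between types the differences were 1.03 ± 0.27 for C-type minus B-type (limma adjusted p = 0.118), 0.65 ± 0.27 for A-type minus B-type (limma adjusted p = 1.00) and 0.38 ± 0.27 for C-type minus A-type (limma adjusted p = 0.59). None was called.

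Mfap4, which binds elastic fibre components, read 6.65 and 6.51 on the C-type arrays, 6.56 and 6.83 on the A-type arrays, 6.39 and 6.18 on the B-type arrays, and 3.90 and 5.21 on the pulmonary arrays. The fibroblast arrays lay between 6.18 and 6.83, and the pulmonary arrays were 1.31 apart, the widest gap between replicates of any of the 7 genes. No difference between types was called, with estimates of -0.12 ± 0.44 for C-type minus A-type, 0.30 ± 0.44 for C-type minus B-type and 0.41 ± 0.44 for A-type minus B-type.

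Gpc3, a glypican that in mice restrains growth and binds Hedgehog proteins, did not share the grading of Npnt, Itga8 and Limch1. Its working probe, A_52_P23225 at chrX:49625740-49625799 of mm9, read 5.92 and 5.77 on the C-type arrays, 6.89 and 6.77 on the A-type arrays, 6.86 and 6.80 on the B-type arrays, and 2.94 and 3.27 on the pulmonary arrays. A-type and B-type arrays overlapped, and both C-type arrays lay below them. The differences of -0.99 ± 0.27 for C-type minus A-type (limma adjusted p = 0.2) and -0.99 ± 0.27 for C-type minus B-type (limma adjusted p = 0.135) were not called. A-type minus B-type was 0.00 ± 0.27, and its sign changed with the scaling.

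Set against the whole array, C-type and B-type fibroblasts differed in 4 of the 7 genes, all higher in C-type cells, where 2.43% of all tested genes were called in either direction, 1.17% as higher and 1.26% as lower. The median difference was 2.50 over the 7 genes and -0.05 over all genes. Between C-type and A-type fibroblasts, 1 of 7 was called, Npnt, against 0.383% of all genes (0.113% higher and 0.271% lower), and the median was 1.62 over the 7 genes and -0.05 over all genes. That call was held in 13 of 21 alternative settings, and leaving out A1, A2, B1, B2 or C2 ended it, with differences of 2.93 to 3.19 and limma adjusted p of 0.0683 to 0.257. Between A-type and B-type fibroblasts limma called 0 of 7 and 0% of all genes, with 576 genes at an unadjusted p under 0.05, and the median was 0.65 over the 7 genes. That fit pools the spread of all 4 groups. With only the groups compared in the fit, 1952 genes had an unadjusted limma p under 0.05 and 0 were called. The lack of calls does not show that these types are alike. With array weights limma called 244 genes in this comparison, with normexp background correction 22, and with a trended robust variance 10. Npnt and Itga8 were among those called in all 3 of these settings and Limch1 in the first 2. The differences A-type minus B-type of Npnt, Itga8 and Limch1 had the same sign in every one of the 21 alternatives.

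Signal of markers of other cell types also differed between the types. The sum of 7 alveolar type 1 markers, among them Ager and Hopx, was 2.12 and 1.82 on the C-type arrays, 1.01 and 0.804 on the A-type arrays, 0.925 and 1.096 on the B-type arrays, and 47.0 and 38.3 on the pulmonary arrays. Single type 1 markers did not all follow this sum. Akap5 had the order of Npnt, at -0.72 and -0.16 on C-type, -2.16 and -2.66 on A-type, and -3.09 and -4.14 on B-type arrays. Aqp5 read -0.50 and -1.19 on C-type, -2.68 and -2.68 on A-type, and -2.23 and -2.52 on B-type arrays. Hopx read -1.44 and -2.64 on C-type, -2.00 and -1.88 on A-type, and -1.29 and -1.39 on B-type arrays. Hopx and Clic5 had their lowest mean in C-type cells. For 7 alveolar type 2 markers the sums were 16.4 and 9.51 on the C-type arrays, 6.60 and 5.98 on the A-type arrays, 6.57 and 9.59 on the B-type arrays, and 267 and 282 on the pulmonary arrays. Both sums were lower on the C-type arrays than on the pulmonary arrays, and higher on C1 than on any A-type or B-type array. Ager, Hopx, Aqp5, Sftpc, Lamp3, Abca3 and the airway marker Scgb1a1 were detected above background on 6 of 6 sorted arrays, the airway marker Cyp2f2 on 5 and the lymphatic marker Prox1 on 4, while Cdh1, Foxj1, Flt4 and Lyve1 were so on 0. Sftpc, the surfactant protein C of alveolar type 2 cells, read 3.11 and 1.23 on the C-type arrays, -0.52 and -0.18 on the A-type arrays, -1.87 and -0.97 on the B-type arrays, and 7.74 and 7.76 on the pulmonary arrays. Its order over the fibroblast types was that of Npnt, but the alveolar type 2 markers did not all share it. By group means Sftpa1 and Slc34a2 had this order, well above background on 3 and 1 of the 6 fibroblast arrays. Sftpb, Sftpd and Lamp3 had a higher mean in B-type than in A-type cells, and Abca3 had its lowest mean in C-type cells. Lamp3 read 2.70 and 2.58 on the C-type arrays, 2.35 and 2.16 on the A-type arrays, 2.49 and 3.03 on the B-type arrays, and 2.93 and 3.63 on the pulmonary arrays. On the A-type and B-type arrays Lamp3 was the largest part of the type 2 sum, so that sum there mostly follows 1 gene.

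Among the fibroblast types, the sum of pericyte markers was highest in C-type cells and that of smooth muscle markers lowest in B-type cells. Not every single marker followed its sum. The sum of 5 pericyte markers was 2.20 and 3.42 on the C-type arrays, 1.47 and 1.46 on the A-type arrays, 1.47 and 1.18 on the B-type arrays, and 4.69 and 4.93 on the pulmonary arrays, with Rgs5 and Trpc6 at background on each fibroblast array. The sum of 5 smooth muscle markers was 3.34 and 5.53 on the C-type arrays, 4.26 and 5.08 on the A-type arrays, 2.60 and 2.43 on the B-type arrays, and 7.88 and 8.83 on the pulmonary arrays. Of these, Des (desmin) read 0.16 and 1.44 on the C-type arrays, -0.77 and -1.12 on the A-type arrays, -1.53 and -2.61 on the B-type arrays, and 1.30 and 0.39 on the pulmonary arrays. Acta2 alone of the 5 did not have its lowest mean in B-type cells. It read 0.47 and 1.12 on C-type, 1.66 and 2.02 on A-type, and 0.84 and 0.85 on B-type arrays. The pericyte marker Notch3 was higher on A-type arrays (-2.56 and -2.58) than on C-type arrays (-2.97 and -5.01). The part of epithelial, pericyte or smooth muscle signal in the differences of the 7 genes between types was not tested.

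**Figure D3:**
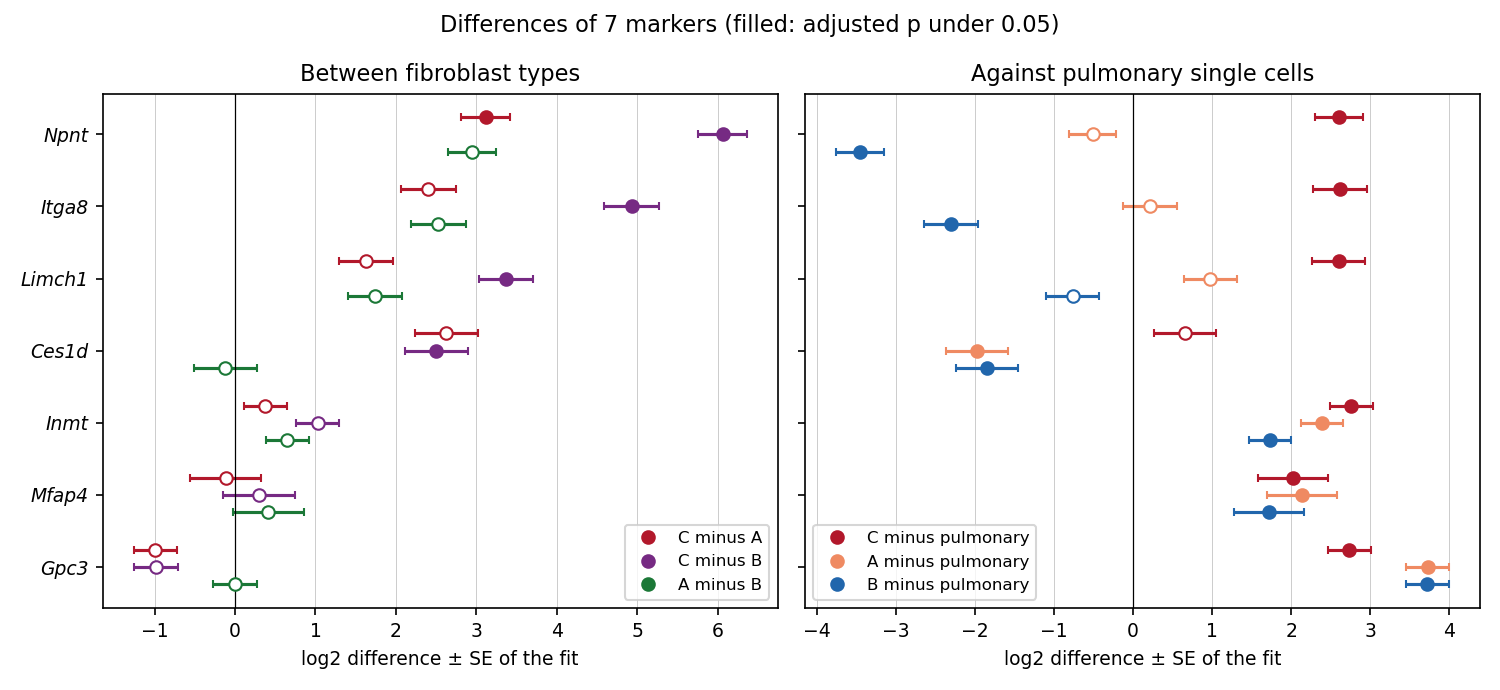
Log2 difference (horizontal axis) with the standard error of the limma fit for the 7 genes, between fibroblast types (left) and against pulmonary single cells (right), with filled points for an adjusted p under 0.05. Npnt has the largest C-type minus B-type difference, 6.06, and B-type minus pulmonary is below 0 for Npnt, Itga8, Limch1 and Ces1d.

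Against pulmonary single cells, C-type fibroblasts had higher levels of 6 of the 7 genes, and 0 were called lower, where 28.5% of all tested genes were called in either direction, 14.8% as higher and 13.7% as lower. The 3 comparisons with pulmonary single cells share the same 2 arrays, so their values are given side by side and not counted as separate evidence. Npnt was 6.07-fold higher in C-type fibroblasts (2.60 ± 0.30, limma adjusted p = 0.00117), differed by -0.51 ± 0.30 in A-type fibroblasts (limma adjusted p = 0.253), and was 11.0-fold lower in B-type fibroblasts (-3.46 ± 0.30, limma adjusted p = 0.000335). Itga8 was 6.15-fold higher in C-type cells (2.62 ± 0.34, limma adjusted p = 0.00188), differed by 0.22 ± 0.34 in A-type cells (limma adjusted p = 0.666), and was 4.95-fold lower in B-type cells (-2.31 ± 0.34, limma adjusted p = 0.00306). Thus both the ligand and its receptor subunit were above the whole suspension in 1 sorted type and below it in another.

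Limch1 was 6.08-fold higher in C-type fibroblasts (2.60 ± 0.33, limma adjusted p = 0.00174), and its A-type difference of 0.98 ± 0.33 was not called (limma adjusted p = 0.0705). Ces1d differed by 0.65 ± 0.39 in C-type cells (limma adjusted p = 0.256) and was 3.92-fold lower in A-type cells (-1.97 ± 0.39, limma adjusted p = 0.0104) and 3.61-fold lower in B-type cells (-1.85 ± 0.39, limma adjusted p = 0.013). Pu1 and Pu2 were 1.01 apart for Ces1d. Without Pu replicate 1 the C-type difference was 1.16 and called (limma adjusted p = 0.0332), and without Pu replicate 2 it was 0.15 (limma adjusted p = 0.708). The A-type call was lost without A replicate 1 or A replicate 2 (limma adjusted p = 0.0737 and 0.0622), and the B-type call without B replicate 1 or B replicate 2 (limma adjusted p = 0.0739 and 0.083).

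The remaining 3 genes were higher in every sorted type. Inmt was 6.78-fold higher in C-type fibroblasts (2.76 ± 0.27, limma adjusted p = 0.000544), 5.23-fold higher in A-type fibroblasts (2.39 ± 0.27) and 3.33-fold higher in B-type fibroblasts (1.74 ± 0.27). Gpc3 was 6.67-fold higher in C-type cells (2.74 ± 0.27, limma adjusted p = 0.000597), 13.2-fold higher in A-type cells (3.73 ± 0.27) and 13.2-fold higher in B-type cells (3.72 ± 0.27). Both kept these calls in all 21 alternative settings.

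Mfap4 was 4.07-fold higher in C-type cells (2.02 ± 0.44, limma adjusted p = 0.0151), 4.41-fold higher in A-type cells (2.14 ± 0.44, limma adjusted p = 0.0123) and 3.31-fold higher in B-type cells (1.73 ± 0.44, limma adjusted p = 0.0265). Its size depended on which pulmonary array was used. Without Pu replicate 1 the C-type, A-type and B-type differences were 1.37, 1.48 and 1.07, and without Pu replicate 2 they were 2.68, 2.80 and 2.38. With only the groups compared in the fit, the C-type and B-type calls were lost (limma adjusted p = 0.0784 and 0.0814). The C-type call was also lost without C replicate 1 (limma adjusted p = 0.054), the A-type call without A1 or A2 (limma adjusted p = 0.0579 and 0.0907), and the B-type call without A1, A2, B1 or B2 (limma adjusted p of 0.0541 to 0.143).

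In A-type fibroblasts, 4 of the 7 genes were called against pulmonary single cells, 3 higher and 1 lower, where 26.4% of all tested genes were called (14.7% higher and 11.7% lower). Without A1 or A2 the count was 2. B-type fibroblasts had 6 of 7 called, 3 higher and 3 lower, where 29% of all genes were called (16.1% higher and 12.9% lower). The mean of the 3 types had 5 of 7 called, 4 higher (Limch1, Inmt, Mfap4 and Gpc3) and 1 lower (Ces1d), where 36.4% were called (20.2% higher and 16.2% lower). The calls of Limch1 and Ces1d in this mean were each held in only 9 of 20 alternatives. Among the others, Limch1 had a limma adjusted p of 0.136 with quantile normalization, and Ces1d one of 0.0978 with median scaling. The median difference of the 7 genes was 2.60 in C-type, 0.98 in A-type and -0.76 in B-type fibroblasts, against 0.05, 0.11 and 0.10 over all genes. These comparisons depend on scaling. Scaling each array by its median shifted the median over all genes to 0.45 in C-type, 0.44 in A-type and 0.46 in B-type fibroblasts, and scaling by the 75th percentile of probes detected everywhere shifted it to -0.26, -0.18 and -0.21. The share of called genes that were higher in C-type cells was 52.0% with the 75th percentile, 69.2% with the median and 35.8% with the detected probes.

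Other alveolar and adventitial fibroblast markers were read from the same fit. Of 17 other alveolar fibroblast markers tested, 8 were higher in C-type than in B-type fibroblasts and 0 lower, with a median difference of 1.87, where 1.17% of all genes were higher and 1.26% lower. Refits without single arrays were added after seeing the data. The count of 8 was 0 without B1, 2 without B2, and 6 to 9 without any other array, and 1 marker was called lower without Pu1 or Pu2. The highest were Col13a1, a transmembrane collagen, at least 28.6-fold (4.84 ± 0.37, limma adjusted p = 0.00322), and Slc27a6, a fatty acid transporter, at least 25.2-fold (4.66 ± 0.32, limma adjusted p = 0.0031). The lowest of those called were Spon1, a secreted matrix protein, at 2.38 ± 0.29, and Fgfr4, a fibroblast growth factor receptor, at 1.78 ± 0.32. Without B1 none of these 4 was called, and the Fgfr4 call was held in 2 of 8 such refits. Not all alveolar markers moved this way: 9 did not pass, with values such as -1.35 for Gdf10 and -0.41 for Vegfd. None of the 17 was called between C-type and A-type or between A-type and B-type fibroblasts in the fit of all 8 arrays, and 2 were called in C-type minus A-type without Pu1 or Pu2.

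Adventitial fibroblast markers ran in the opposite direction. Of 16 tested, 9 were lower in C-type than in B-type fibroblasts and 0 higher, with a median of -2.32. The count of 9 was 0 without B1 or B2, 6 without A1 or A2, and 7 to 13 without any other array. The lowest was Dpp4, a dipeptidyl peptidase, which read -3.34 and -5.46 on the C-type arrays, -1.60 and -1.70 on the A-type arrays, and 1.38 and 1.45 on the B-type arrays, and its probe was detected above background on C1 only among the C-type arrays. Its C-type minus B-type difference was -5.81 ± 0.69 (limma adjusted p = 0.00939), and without C2, the array where it was not detected, it was 26.9-fold lower in C-type cells (-4.75, limma adjusted p = 0.0226). Next was Ly6c1, a surface antigen, which read 3.48 and 2.08 on the C-type arrays, 6.59 and 7.01 on the A-type arrays, and 7.38 and 7.30 on the B-type arrays. It was 23.5-fold lower in C-type cells (-4.55 ± 0.46, limma adjusted p = 0.00611), 14.5-fold lower without C2 and 38.1-fold lower without C1. Both calls were lost without B1 or B2, with limma adjusted p of 0.0927 and 0.0904 for Dpp4 and 0.0772 and 0.0695 for Ly6c1. Dcn, which encodes the proteoglycan decorin, at -2.36 ± 0.43, and Has1, a hyaluronan synthase, at -1.48 ± 0.27, were the least changed of those called. The Dcn difference was -3.01 without C1 and -1.71 without C2, and its call was held in 1 of 8 refits without single arrays and that of Has1 in 2 of 8. Between C-type and A-type fibroblasts, 4 of the 16 were lower and 0 higher, where 0.271% and 0.113% of all genes were, and the count of 4 was 0 without A1, A2, B1, B2 or C2 and 9 without C1. The gene Ly6c1 is close in sequence to other Ly6 genes, whose transcripts the probe may also detect.

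**Figure D4:**
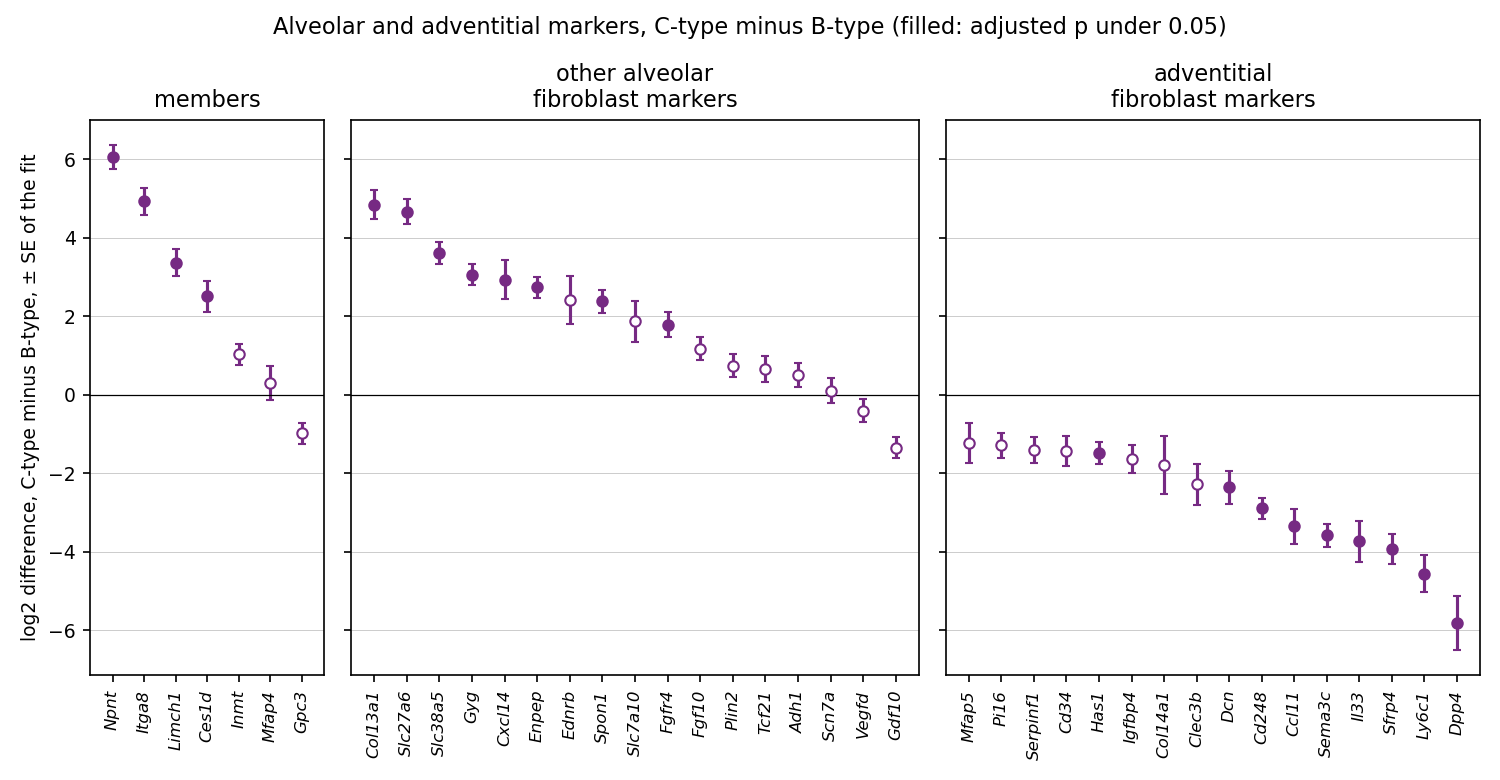
Log2 difference, C-type minus B-type fibroblasts (vertical axis), with the standard error of the limma fit for the 7 genes, 17 other alveolar fibroblast markers and 16 adventitial fibroblast markers, with filled points for an adjusted p under 0.05. All 8 called alveolar markers lie above 0 and all 9 called adventitial markers below it.

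Against pulmonary single cells, 12 of the 17 alveolar markers were higher and 2 lower in C-type, 10 and 2 in A-type, and 5 and 4 in B-type fibroblasts. Of the 16 adventitial markers, 11 were higher and 3 lower in C-type, 13 and 1 in A-type, and 14 and 0 in B-type fibroblasts. Over all genes, 14.8% were higher and 13.7% lower in C-type, 14.7% and 11.7% in A-type, and 16.1% and 12.9% in B-type fibroblasts.

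Of 12 tested ligands and partners of the receptor, 11 had no called difference between C-type and B-type fibroblasts, where 2.43% of all genes were called. Itgb1, the beta 1 subunit with which integrin alpha 8 pairs, read 4.36 and 4.46 on the C-type arrays, 3.31 and 3.34 on the A-type arrays, 3.37 and 3.52 on the B-type arrays, and 4.31 and 2.96 on the pulmonary arrays. C-type arrays were higher than those of both other types, by 1.08 against A-type and 0.96 against B-type, but neither difference was called (limma adjusted p = 0.37 and 0.372). The 1 called was Frem1, a basement membrane protein of the Fraser complex, higher in C-type cells (2.86 ± 0.30, limma adjusted p = 0.00629), and the call was lost without B1 or B2. Frem1 read 1.84 and 1.45 on the C-type arrays, 0.56 and 0.85 on the A-type arrays, -1.08 and -1.36 on the B-type arrays, and -2.67 and -2.90 on the pulmonary arrays. Its 4 groups did not overlap, and over the fibroblast types their order was that of Itga8. Tnc (tenascin C), another ligand, averaged -2.60 in C-type, -4.27 in A-type and -5.68 in B-type fibroblasts, and was well above background on 1, 1 and 0 of the 2 arrays of those types, with no called difference between C-type and B-type cells (limma adjusted p = 0.0726).

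Egfl6, the closest relative of nephronectin, was well above background only on the 2 pulmonary arrays, at 0.72 and 0.75. It was at least 44.7-fold lower in C-type, at least 76.7-fold lower in A-type and at least 59.5-fold lower in B-type fibroblasts. Of the other ligands, Fn1 (fibronectin) and Fbn1 (fibrillin 1) were higher than in pulmonary single cells in all 3 types, by 1.63, 1.87 and 2.32 for Fn1 and 3.37, 3.73 and 4.22 for Fbn1 in C-type, A-type and B-type cells. Without Pu1 these were 1.04, 1.28 and 1.74 for Fn1 and 2.74, 3.11 and 3.59 for Fbn1, and without Pu2 they were 2.22, 2.45 and 2.91 for Fn1 and 3.99, 4.36 and 4.84 for Fbn1. The C-type call of Fn1 was held in 2 of 8 refits without single arrays, and its A-type call was lost without A1 or A2. Spp1 (osteopontin), at background on each fibroblast array, was at least 23.8-fold lower in C-type, at least 40.9-fold lower in A-type and at least 40.0-fold lower in B-type fibroblasts. Vtn (vitronectin) was well above background on 0 of 2 C-type, 1 of 2 A-type and 1 of 2 B-type arrays. It was at least 12.2-fold lower in C-type fibroblasts, and the differences in A-type and B-type fibroblasts were -3.96 and -3.72, the second of them -3.06 without B1 and -4.37 without B2.

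Other integrin alpha subunits showed no called difference between fibroblast types in any of the 10 tested. Over all genes, 2.43% were called in C-type minus B-type, 0.383% in C-type minus A-type and 0% in A-type minus B-type. At these shares a list of 10 genes would hold few or no calls. Against pulmonary single cells, 3 of the 10 were called higher and 6 lower in C-type, 2 and 4 in A-type, and 2 and 3 in B-type fibroblasts. Over all genes, 14.8% were higher and 13.7% lower in C-type, 14.7% and 11.7% in A-type, and 16.1% and 12.9% in B-type fibroblasts. The median difference of the 10 was -1.39, -0.91 and -0.96 in C-type, A-type and B-type cells. Itgav, which pairs with several beta subunits, and Itga11, a collagen receptor subunit, were higher in all 3 types. For Itgav the differences in C-type, A-type and B-type cells were 2.03, 1.89 and 2.15. Itga11 read -4.04 and -2.12 on the pulmonary arrays and was well above background on 1 of them, with differences of 3.21, 4.99 and 5.55, against 2.25, 4.03 and 4.59 without Pu1 and 4.17, 5.95 and 6.51 without Pu2. Among the 5 other glypicans, Gpc1 was higher in C-type than in B-type fibroblasts (2.39 ± 0.40, limma adjusted p = 0.0332), opposite in sign to Gpc3, and the call was lost without A1, A2, B1, B2 or C2. Gpc6 (-2.31) and Gpc4 (-0.65) had the sign of Gpc3, and Gpc2 (0.55) and Gpc5 (0.74) that of Gpc1, none of them called. Of 10 microfibril-associated genes, none was called between types, where the shares over all genes were those given above for the integrins between types. Nnmt, a methyltransferase related to Inmt, was higher than in pulmonary single cells by 3.68 in C-type, 3.73 in A-type and 3.68 in B-type fibroblasts, while the other relative, Pnmt, passed no test.

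Genes whose signal ran most like that of each member were ranked by Pearson correlation over the 8 arrays, which are in 4 groups and on 2 slides. Only plainly named genes were ranked, and only if their range of group means was wide enough relative to that of the member. They also had to be well above background on both arrays of their brightest group. For Npnt they were Adra1a (an adrenergic receptor, 0.992), Itga8 (0.987), Nrp2 (0.980), Aldh1a1 (0.978) and Rgs2 (0.976). Itga8 was followed most closely by Nrp2 (0.989), Npnt (0.987), Adra1a (0.986), Mylk (0.985) and Gyg (0.980). Limch1 had Fgfr3 (0.992), Foxf2 (0.991), Lrat (0.985), Tecrl (0.984) and Rgs17 (0.980). Itga8 and Npnt thus stood among each other's 5 closest genes, of 1952 genes ranked for Npnt and 2831 for Itga8, and shared Adra1a and Nrp2.

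Closest to Ces1d were Nlrp12 (0.976), Nnat (0.974), Upk1b (0.971), Xpr1 (0.969) and Tchh (0.963). For Inmt they included Olfml3 (0.992), Spry1 (0.992), Rasl11b (0.991) and St8sia2 (0.990). Mfap4 had Thnsl2 (0.999), Dact3 (0.997), Smtn (0.997), Mfge8 (0.996) and Neo1 (0.994), and Gpc3 had Cercam (0.999), Dpt (0.999), Timp3 (0.999), Atp8b2 (0.998) and Gli1 (0.997). No gene of these last 3 lists was shared with the lists of Npnt, Itga8 or Limch1. The Limch1 list shared none with those of Npnt or Itga8 either. With 8 arrays, such values separate group patterns only coarsely.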

How the data were processed

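The files hold spot intensity, background-subtracted by Agilent Feature Extraction 10.10.1.1 per the file headers and the submitters' processing notes, for 62976 spots per array, 59305 of them not controls. The deposited value table holds log2 values, which equalled the log2 processed signal minus 1 constant per array (within 0.02 for 100% of 55653 probes, column median 4.84), and it served as an alternative. Per the labels' protocols, 10 ng of RNA was amplified (Ovation PicoSL WTA) and labelled with Cy3, and amplification may compress or distort differences.

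Here, log2 processed signal minus each array's 75th percentile was used. Spots of 1 probe were averaged, and 28 probes with outlier spots were left out. Probes were named through RefSeq accessions, and probe positions are the files' mm9 coordinates. Exon and UTR positions of the probes were not determined. A gene needed a probe detected well above background on each array of 1 or more groups, which left 17744 genes, each read from its brightest such probe. limma 3.58.1 in R 4.3.3 fitted 4 group means over all 8 arrays (4 residual and 3.05 prior degrees of freedom), and p-values were adjusted over all genes within each of 7 comparisons. The fit was also run on simulated data in which each gene had the same spread in every group. The real replicate pairs differ in spread, so that run does not cover this feature of the data. Where all arrays of the dimmer group were at background, the fold is written "at least" and set against the higher of the probe's own signal and the array's lowest signal well above background. With 2 arrays a group, the number of arrays limits the precision. The p-values rest on the spread between prepared samples, pooled over the 4 groups and drawn towards a value shared by all genes. They do not rest on the spread of the compared groups alone.

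The 7 genes were named in every comparison. From each gene list, counts and the 2 highest and 2 lowest called genes of C-type minus B-type were named, plus Itgb1, Egfl6 and the 5 genes most correlated with each member. One gene correlated with Inmt is not reported here. Other genes of a list were named after their values were seen. The members and the lists were chosen with earlier results of these data known. Same-numbered replicates did not deviate together (correlations of -0.08 to 0.06 between groups), so the replicate number was not treated as a pairing. Refits of the gene lists without single arrays were added after seeing the data. Alternatives changed the scaling, background correction, filter, probe rule, variance model, samples and replicates. Figures used Python 3.11.15, numpy 2.4.6, pandas 2.3.3 and matplotlib 3.10.9.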

Additional observations from a re-analysis of the deposited data

How the results depend on the processing

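Over 7 genes and 7 comparisons, 1022 alternative values were computed: 914 kept their direction and side of the threshold, 54 kept the direction and were no longer called, 42 became called, and 12 changed sign. All 12 were uncalled differences near 0, and the cause was not tested. Gpc3, A-type minus B-type, was -0.0197 with median scaling, -0.0269 with quantile normalization, -0.025 with the authors' deposited table, and -0.0555 to 0.0624 without single arrays. Itga8, A-type minus pulmonary, was -0.0827 with quantile normalization, -0.0668 with the 75th percentile over detected probes, and -0.108 to 0.546 without single arrays, and the mean of 3 types minus pulmonary was -0.084, -0.127 and -0.15 to 0.505 in the same settings. Mfap4, C-type minus A-type, was -0.254 to 0.0209 without single arrays.

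The count of the 7 genes called in C-type minus A-type, 1 as reported, was 2 with median scaling, the percentile over detected probes or the authors' deposited table, 3 with the stricter filter, the mean of a gene's probes or the trended robust variance, 4 with normexp or array weights, and 0 with no filter, the replicate block or only the groups compared. With the replicate block, Npnt C-type minus A-type had a limma adjusted p of 0.0543, and Limch1 in the mean of 3 types minus pulmonary 0.0542. No other call on the 7 genes changed with the block. In A-type minus B-type, the count of 0 became 3 with normexp or array weights and 2 with the trended robust variance. For the mean of 3 types, 5 became 3 with no filter or array weights. Leaving out single arrays gave 0 to 4 in C-type minus A-type, 1 to 4 in C-type minus B-type, 0 to 0 in A-type minus B-type, 5 to 7 in C-type, 2 to 5 in A-type and 4 to 7 in B-type minus pulmonary, and 3 to 5 in the mean of 3 types.

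Counts over all genes moved by more than 1.5 times in some settings. C-type minus A-type had 68 calls, against 175 with normexp, 142 with the trended robust variance, 226 with array weights, 27 over probes, 1 with no filter, 0 with the replicate block or only the groups compared, and 0 to 493 without single arrays. C-type minus B-type had 431, against 734 with array weights, 245 with no filter, 127 with only the groups compared and 2 to 920 without single arrays. A-type minus B-type had 0, against 244 with array weights, 22 with normexp and 10 with the trended robust variance. Minus pulmonary, array weights gave 2167 against 5051 in C-type, 3409 against 5142 in B-type and 3108 against 6460 in the mean of 3 types. Only the groups compared gave 2284 in C-type, and testing each probe gave 7824 in C-type and 10267 in the mean of 3 types. Without single arrays, A-type minus pulmonary ranged from 2153 to 6908 around 4688 and B-type from 2367 to 7115. A slide block could not be fitted against pulmonary cells, and between types there is 1 slide.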
